A study of Homo sapiens with 16 samples.

Results

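The 10 genes described here are RBM14, PEAR1, AQP1, ARID5A, PSKH1, IMPA2, NPTXR, ATP2A3, CHMP3 and TTC13. They are 10 of the 16445 genes that passed the filter on low counts, and of 28719 genes measured in both experiments of the series. They were selected by name with results of these libraries in view, as genes whose level changed with 5-fluorouracil (5-FU) in cells carrying MDM2 W329G. Their response in W329G cells therefore chose them. That response, the one in wild-type (WT) cells and the difference between the responses are given below as descriptions. Where calls in these contrasts are counted, the counts describe the selected genes and are not evidence for them.

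The series measured poly-A RNA in U2OS, a human osteosarcoma cell line with an intact p53 gene. All groups share that line, which was either left unedited (WT) or edited with CRISPR/Cas9 so that MDM2 carries the W329G substitution. The WT DMSO and W329G DMSO groups received the solvent for 24 h, and the WT 5-FU and W329G 5-FU groups received 50 µM of 5-FU for 24 h. Each group has 4 libraries, from the 2 lines numbered cells 1 and cells 2 in each of 2 experiments that were sequenced by different vendors. Experiment 1 gave replicates 1 (cells 1) and 2 (cells 2), and experiment 2 gave replicates 3 (cells 1) and 4 (cells 2). Whether a line is 1 clone is not stated, a count per gene cannot show the edited codon, and the labels do not say that libraries came from separate cultures, so p-values here reflect only how far these libraries vary, which may be technical.

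Total counts ran from 24715999 to 56877328 per library, and mitochondrially encoded genes took 7.14% to 31.84% of the joined counts. Of the osteoblast markers, COL1A1 (mean 4735 CPM, counts scaled to library size), SPARC (2485 CPM) and VIM (1346 CPM) were high. RUNX2 measured 41.34 CPM and SPP1 26.48 CPM. COL1A2 (2.138 CPM) and ALPL (2.081 CPM) were low, and IBSP, SP7, BGLAP and TWIST1 had means under 1 CPM. The 8 blood markers summed to 1.067 to 2.013 CPM, and the epithelial list to 138.4 to 719.8 CPM, mostly KRT8 and KRT18.

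5-FU is a pyrimidine analog that inhibits thymidylate synthase and is built into RNA and DNA, which disturbs ribosomal RNA processing and activates p53. MDM2 is the ubiquitin ligase that holds p53 low, and the MDM2 gene is itself a p53 target. Its central region binds ribosomal proteins, and p53 can be released from MDM2 when ribosome production fails. The 10 genes are not members of 1 pathway. RBM14 encodes an RNA-binding coactivator and paraspeckle protein. ARID5A encodes a protein that binds and stabilizes inflammatory mRNAs. AQP1 is a water channel and PEAR1 a receptor with EGF-like repeats first described on platelets and endothelium. PSKH1 is a serine kinase, IMPA2 an inositol monophosphatase, ATP2A3 a calcium pump of the endoplasmic reticulum (SERCA3), NPTXR a membrane-anchored pentraxin of neurons, and CHMP3 a subunit of the ESCRT-III membrane remodelling complex. TTC13 encodes a tetratricopeptide repeat protein.

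Levels below are CPM on library sizes scaled with TMM factors. Group means per kilobase of exon allow genes to be set against each other. Under DMSO in WT cells RBM14 stood highest at 19.54 ± 2.434 CPM per kb (SD, n = 4), followed by CHMP3 at 12.14 ± 1.488. IMPA2 (4.961 ± 1.78), AQP1 (4.946 ± 1.434), NPTXR (3.975 ± 1.2), PSKH1 (3.574 ± 1.55) and ARID5A (2.792 ± 0.605 CPM per kb) each differed from the next by less than the larger SD of the pair. ATP2A3 (1.476 ± 0.4875), TTC13 (1.269 ± 0.3163) and PEAR1 (0.8683 ± 0.6363 CPM per kb) formed the low end and were likewise not apart beyond the larger SD.

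In W329G cells the 10 genes moved with 5-FU by 0.72 to 1.51 on the log2 scale in absolute size: RBM14, PEAR1, AQP1 and ARID5A were higher, and PSKH1, IMPA2, NPTXR, ATP2A3, CHMP3 and TTC13 were lower. All 4 line pairs (5-FU against DMSO of the same line and experiment) moved in that direction for each of the 10 genes. These pairs make up the contrast that chose the genes, and the share of all genes with 4 pairs in 1 direction was not computed. The 4 higher genes sit among 32 genes called higher in W329G, 0.195% of all genes tested, and the 6 lower genes among 84 called lower, 0.511%. A call is an adjusted p under 0.05 in edgeR's quasi-likelihood test with Benjamini-Hochberg adjustment. Calls, standard errors and intervals of the responses come from a fit that does not use the line pairs, unless a replicate block is named. Since this contrast selected the genes, nothing is read from these counts. With 1 replicate left out, 2 to 5 of the 10 were called: 5 without replicate 1, 2 without replicate 2, 5 without replicate 3 and 4 without replicate 4. In either experiment alone 0 of the 10 were called in W329G, where 0 of all genes were. In WT cells 2 of the 10 were called higher, where 3.81% of all genes were, and 4 were called lower, where 4.57% were. WT replicates 1 to 4 left out in turn gave 5, 4, 4 and 4 calls among the 10, and experiments 1 and 2 alone gave 2 and 0. In a fit of the experiment 2 libraries alone 0 of all genes were called in WT. Calls over all genes also fell in each of these smaller fits (counts in the last section), so the drops are not particular to the 10. A fit of all libraries with the groups of each experiment kept apart gave WT calls in experiment 2. Among them were CDKN1A (2.17, adjusted p = 0.00443) and MDM2 (1.81, adjusted p = 0.012), by the same test. Libraries are bulk, so a lower level from fewer cells that make a transcript and one from less RNA per cell cannot be told apart.

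**Figure D1:**
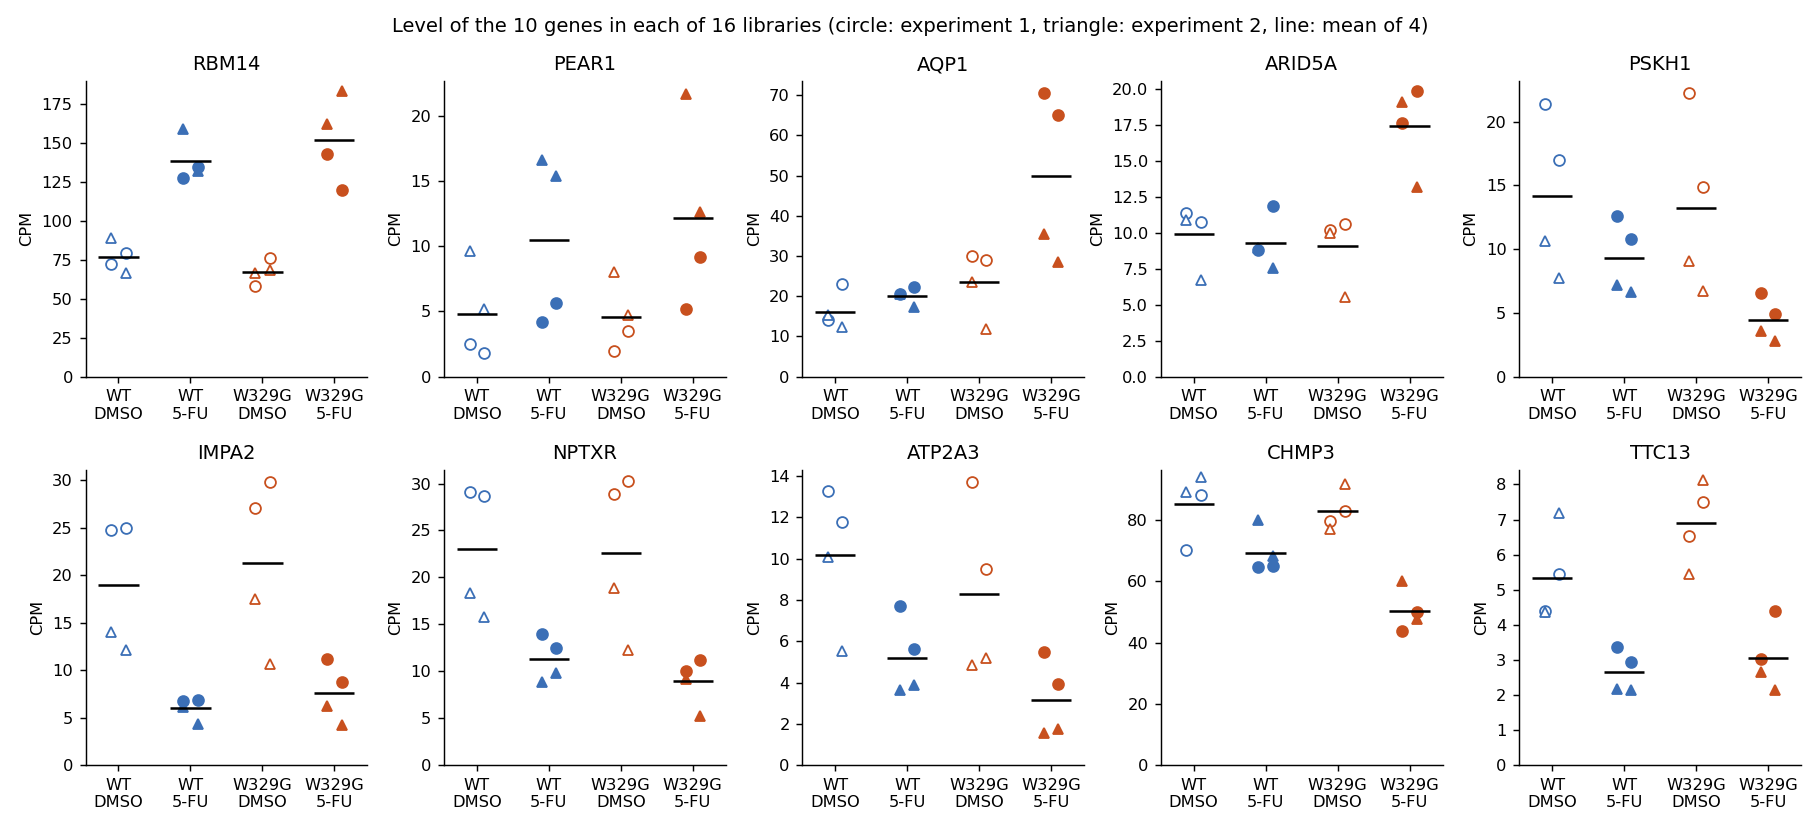
CPM of each of the 10 genes (vertical axis, from 0) in the 16 libraries, by group (horizontal axis). Open symbols are DMSO, filled symbols 5-FU, circles experiment 1, triangles experiment 2, and the line is the mean of 4; ARID5A is above its DMSO range only in W329G cells (13.2 to 19.86 CPM), and RBM14 is above it in both genotypes.

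RefSeq's promoter table (GRCh38.p14) holds windows for 6 of the 10 genes, RBM14, PEAR1, AQP1, ARID5A, PSKH1 and TTC13, with 2 starts for ARID5A. IMPA2, NPTXR, ATP2A3 and CHMP3 were not matched. The 250 bases before each start were searched on both strands for CCAAT (the CCAAT box), TATAAA (the TATA box) and GGGCGG (the GC box). Positions count back from the RefSeq start, whose preceding base is −1, and give the motif's first base on the gene's strand. The stretches below show how the higher genes RBM14, PEAR1 and ARID5A and the lower gene PSKH1 differ in these elements, written on the gene's strand with the 3 motifs, read on either strand, in capitals. Each run ends before the first annotated base of the gene. They are RBM14 at chr11:66616432-66616581, PEAR1 at chr1:156893548-156893697, ARID5A (first start) at chr2:96536593-96536742 and PSKH1 at chr16:67893104-67893253, all on the plus strand. For AQP1, 30 bases around its TATA box are shown, at chr7:30911809-30911838 on the plus strand.
RBM14: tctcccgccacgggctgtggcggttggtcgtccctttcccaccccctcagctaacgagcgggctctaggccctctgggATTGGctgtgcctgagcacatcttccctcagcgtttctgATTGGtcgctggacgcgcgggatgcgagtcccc
PEAR1: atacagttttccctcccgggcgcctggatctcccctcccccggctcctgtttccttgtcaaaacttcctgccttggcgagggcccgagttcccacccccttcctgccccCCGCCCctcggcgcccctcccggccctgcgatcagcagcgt
ARID5A: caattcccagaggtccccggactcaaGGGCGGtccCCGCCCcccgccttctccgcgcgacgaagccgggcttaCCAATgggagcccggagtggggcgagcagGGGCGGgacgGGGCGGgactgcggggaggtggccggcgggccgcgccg
PSKH1: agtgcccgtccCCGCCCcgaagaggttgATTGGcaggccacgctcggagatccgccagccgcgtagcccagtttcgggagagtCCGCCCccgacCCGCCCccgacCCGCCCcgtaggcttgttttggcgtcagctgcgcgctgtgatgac
AQP1: CCGCCCcccggcccTATAAAtaggcccagc

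RBM14's window holds 3 CCAAT boxes in reverse orientation, at −120, −81 and −48 (the last lies inside the annotated gene and is not shown), while 2.93% of all 35116 windows hold 3 or more and 32% hold at least 1. ARID5A has 1 at −86, PSKH1 1 at −122 and TTC13 1 at −157, so CCAAT is present upstream of both higher and lower genes. AQP1 is the 1 gene of the 6 with TATAAA, at −30, a sequence in 10.7% of windows. GC boxes, in 42.6% of windows, are found before PEAR1, ARID5A, AQP1, PSKH1 and TTC13, and RBM14's window has none. The p53 decamer, searched by name and present in 5.57% of windows, has 1 match among the 6 genes, before PSKH1 at −36, which says nothing about binding. TGACTCA (AP-1), TGACGTCA (CRE) and CACGTG (E-box) match none of the member windows, and 4.2%, 1.65% and 6.34% of all windows.

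RBM14 (ENSG00000239306, chromosome 11, 66616582 to 66627347 on the plus strand, GRCh38 coordinates of the experiment 1 files) was the most abundant of the set. In WT cells its 4 DMSO libraries measured 72.59, 79.35, 89.06 and 66.74 CPM, and its 5-FU libraries 127.3, 134.7, 159.3 and 132 CPM, in the order of replicates 1 to 4. In W329G cells the DMSO libraries measured 57.96, 76.06, 66.83 and 68.73 CPM and the 5-FU libraries 143.2, 120, 162.5 and 183.6 CPM. Every 5-FU library was above every DMSO library in both genotypes, and under 5-FU the genotypes overlapped. The fitted log2 change was 1.17 ± 0.13 (SE) in W329G and 0.84 ± 0.13 in WT, a difference of 0.32 with a 95% interval of −0.07 to 0.71. RBM14 shares 432 exon bases with the readthrough gene RBM14-RBM4, which had 1.27% of its counts in experiment 1 and 2.01% in experiment 2.

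PEAR1 (ENSG00000187800, chromosome 1, 156893698 to 156916434, plus strand) had the largest fitted increase of the set in W329G, 1.41 ± 0.29, beside 1.13 ± 0.29 in WT (difference 0.28, 95% interval −0.59 to 1.14). Its levels were far apart between experiments: the mean of the 8 libraries was 4.257 CPM in experiment 1 and 11.74 CPM in experiment 2. In experiment 1 its W329G libraries held 1.961 and 3.534 CPM with DMSO, then 5.163 and 9.208 CPM with 5-FU. In experiment 2 they held 8.058 and 4.754 CPM with DMSO, then 21.66 and 12.62 CPM with 5-FU. Pooled over experiments the treatments overlap, while within each experiment both 5-FU libraries were above both DMSO libraries. The pair responses in W329G lay between 1.37 and 1.42, and those in WT between 0.71 and 1.59.

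PSKH1 (ENSG00000159792, chromosome 16, 67893272 to 67929678, plus strand) had the largest decrease in W329G. Its WT libraries measured 21.42, 17.01, 10.66 and 7.761 CPM under DMSO and 12.61, 10.79, 7.217 and 6.648 CPM under 5-FU. The W329G libraries measured 22.22, 14.9, 9.066 and 6.76 CPM under DMSO and 6.598, 4.885, 3.58 and 2.77 CPM under 5-FU. All 4 W329G 5-FU libraries lay below every other library of this gene, by a narrow margin (6.598 against 6.648 CPM), and experiment 2 read lower than experiment 1 in every group (0.4932 of its mean over 8 libraries). The change was −1.51 ± 0.19 in W329G and −0.56 ± 0.19 in WT, and the difference −0.95 had a 95% interval of −1.52 to −0.39. The WT change was called with the line pairs as a replicate block (−0.56 ± 0.12) and not in edgeR's unblocked fit of all libraries.

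PSKH1 overlaps 2 genes on the opposite strand, and whether counting used strand is not given in the sources used here. CTRL, a pancreatic protease gene, shares 361 exon bases with it and had 1.1% of PSKH1's counts in experiment 1 and 37.1% in experiment 2. The unnamed antisense gene ENSG00000261884 shares 65 exon bases and had 26.6% in experiment 1. CTRL's fitted change was 0.60 ± 0.53 in W329G and 0.87 ± 0.53 in WT, opposite in sign to PSKH1's but with 95% intervals that include 0. In experiment 1, where CTRL had 1 to 11 counts per library, its W329G change was −0.19 ± 0.85. Reads shared between these genes cannot be told apart.

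IMPA2 (ENSG00000141401, chromosome 18, 11981025 to 12030883, plus strand) had nearly the same fitted change in both genotypes. The WT libraries measured 24.7, 24.96, 14.07 and 12.16 CPM under DMSO and 6.776, 6.893, 6.153 and 4.349 CPM under 5-FU. The W329G libraries measured 27.06, 29.8, 17.49 and 10.67 CPM under DMSO and 11.23, 8.751, 6.202 and 4.29 CPM under 5-FU. In WT the treatments did not overlap, and in W329G 1 DMSO library of experiment 2 (10.67 CPM) lay under 1 5-FU library of experiment 1 (11.23 CPM). The log2 change was −1.47 ± 0.20 in W329G and −1.58 ± 0.20 in WT, and the 95% interval of the difference (0.11) ran from −0.47 to 0.69. IMPA1, the paralog that carries out the same dephosphorylation of inositol monophosphates, had −0.34 in W329G (adjusted p = 0.249) and −0.14 in WT (adjusted p = 0.565, edgeR quasi-likelihood). No W329G pair of IMPA1 was higher (−0.17 to −0.44), and its W329G 5-FU libraries lay below its W329G DMSO libraries. In WT 1 IMPA1 pair was higher and the treatments overlapped.

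NPTXR (ENSG00000221890, chromosome 22, 38818452 to 38843982, minus strand) was lower with 5-FU in each genotype, with no overlap between treatments in either. It ranged from 12.29 to 30.22 CPM under DMSO and from 5.29 to 11.25 CPM under 5-FU in W329G, and from 15.75 to 29.13 and 8.86 to 14 CPM in WT. The change was −1.29 ± 0.18 in W329G and −0.99 ± 0.18 in WT, with a difference of −0.30 (95% interval −0.82 to 0.22). ATP2A3 (ENSG00000074370, chromosome 17, 3923870 to 3964464, minus strand) had −1.42 ± 0.24 and −0.99 ± 0.23, with a difference of −0.43 (−1.13 to 0.26). Its W329G 5-FU libraries held 5.465, 3.936, 1.563 and 1.77 CPM against 13.7, 9.494, 4.851 and 5.175 CPM under DMSO, so treatments were apart within an experiment and overlapped across experiments. ATP2A2, the SERCA2 paralog, averaged 226.5 ± 18.21 CPM in W329G DMSO and 213.9 ± 11.22 CPM in W329G 5-FU (SD, n = 4; log2 change −0.08, adjusted p = 0.82, edgeR quasi-likelihood).

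TTC13 (ENSG00000143643, chromosome 1, 230906243 to 230978875, minus strand) was the least abundant in CPM, with a mean of 4.49 over all libraries and counts between 72 and 255. It ranged from 5.461 to 8.118 CPM under DMSO and from 2.145 to 4.393 CPM under 5-FU in W329G, and from 4.356 to 7.196 and 2.15 to 3.367 CPM in WT, with no overlap of treatments in either genotype. The change was −1.20 ± 0.25 in W329G and −1.04 ± 0.25 in WT (difference −0.16, 95% interval −0.90 to 0.57). Its WT pairs spread from −0.38 to −1.72 and its W329G pairs from −0.76 to −1.89.

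ARID5A (ENSG00000196843, chromosome 2, 96536743 to 96552638, plus strand) did not carry the same change in WT cells. The WT libraries measured 11.41, 10.74, 10.92 and 6.745 CPM under DMSO and 8.788, 11.9, 8.975 and 7.537 CPM under 5-FU. The W329G libraries measured 10.23, 10.6, 9.993 and 5.531 CPM under DMSO and 17.63, 19.86, 19.14 and 13.2 CPM under 5-FU. The W329G 5-FU libraries were above the other 12, which overlapped among themselves. The log2 change was 0.95 ± 0.20 in W329G and −0.10 ± 0.20 in WT, where 2 of 4 pairs were higher, and the difference was 1.05 (95% interval 0.45 to 1.65). A description of the set as changes shared by both genotypes thus does not hold for ARID5A. For AQP1, PSKH1 and CHMP3 the WT change had the same sign as in W329G but was not called in edgeR's unblocked fit of all libraries. With the line pairs as a replicate block, the WT change of PSKH1 was called and those of AQP1 and CHMP3 were not.

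AQP1 (ENSG00000240583, chromosome 7, 30911855 to 30925516, plus strand) measured 14.16, 22.97, 15.37 and 12.28 CPM in WT DMSO and 20.49, 22.24, 20.47 and 17.27 CPM in WT 5-FU. In W329G it measured 30.03, 28.97, 23.49 and 11.84 CPM under DMSO and 70.59, 65.12, 35.6 and 28.45 CPM under 5-FU. The W329G 5-FU libraries were above all WT libraries, and those of experiment 1 were above those of experiment 2. The log2 change was 1.05 ± 0.22 in W329G and 0.34 ± 0.22 in WT (difference 0.71, 95% interval 0.04 to 1.38), and WT replicate 2 was the 1 pair of 8 that was not higher (−0.05). AQP1 shares 910 exon bases with the readthrough gene ENSG00000250424, which had 0 counts in experiment 1.

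AQP1 and PEAR1 are also made by vessel cells, so the 8 endothelial markers are set beside them. Their levels summed to 6.942 to 16.7 CPM in WT DMSO, 6.005 to 22.5 CPM in WT 5-FU, 6.097 to 14.03 CPM in W329G DMSO and 7.102 to 22.54 CPM in W329G 5-FU, and ERG had the largest share (mean 5.634 CPM). The median log2 change of the 8 with 5-FU was 0.643 in W329G and 0.141 in WT, where the medians of all genes were 0.031 and 0.032. In W329G edgeR called 0 of the 8 (4 at an unadjusted p under 0.05, 1 called by DESeq2, 2 with the replicate block), and in WT 0 (1 at an unadjusted p under 0.05, 1 by DESeq2, 1 with the replicate block). The 4 in W329G were VWF (1.78 ± 0.49), CDH5 (2.01 ± 0.80) and PECAM1 (1.00 ± 0.46), which measured higher, and TEK (−0.87 ± 0.41), which measured lower; they were named after their values were seen. Mean levels of these 4 ran from 0.3393 CPM (CDH5) to 1.359 CPM (PECAM1). All libraries were of the U2OS line, and no vessel tissue was sampled. Any link between these marker genes and the AQP1 and PEAR1 values was not tested.

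CHMP3 (ENSG00000115561, chromosome 2, 86503431 to 86563479, minus strand) had the smallest change of the set in W329G and one of the higher levels. In WT the smallest change was ARID5A's. Its W329G libraries measured 79.45, 82.88, 77.06 and 91.69 CPM under DMSO and 43.65, 49.98, 59.91 and 47.75 CPM under 5-FU. Its WT libraries measured 70.01, 88.04, 89 and 93.78 CPM under DMSO and 64.47, 64.87, 79.78 and 68.21 CPM under 5-FU. The W329G 5-FU libraries were below the other 12. The log2 change was −0.72 ± 0.11 in W329G and −0.30 ± 0.11 in WT, with a difference of −0.43 (95% interval −0.76 to −0.09). The readthrough gene RNF103-CHMP3 had 1.09% of CHMP3's counts in experiment 1 and 0.258% in experiment 2.

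**Figure D2:**
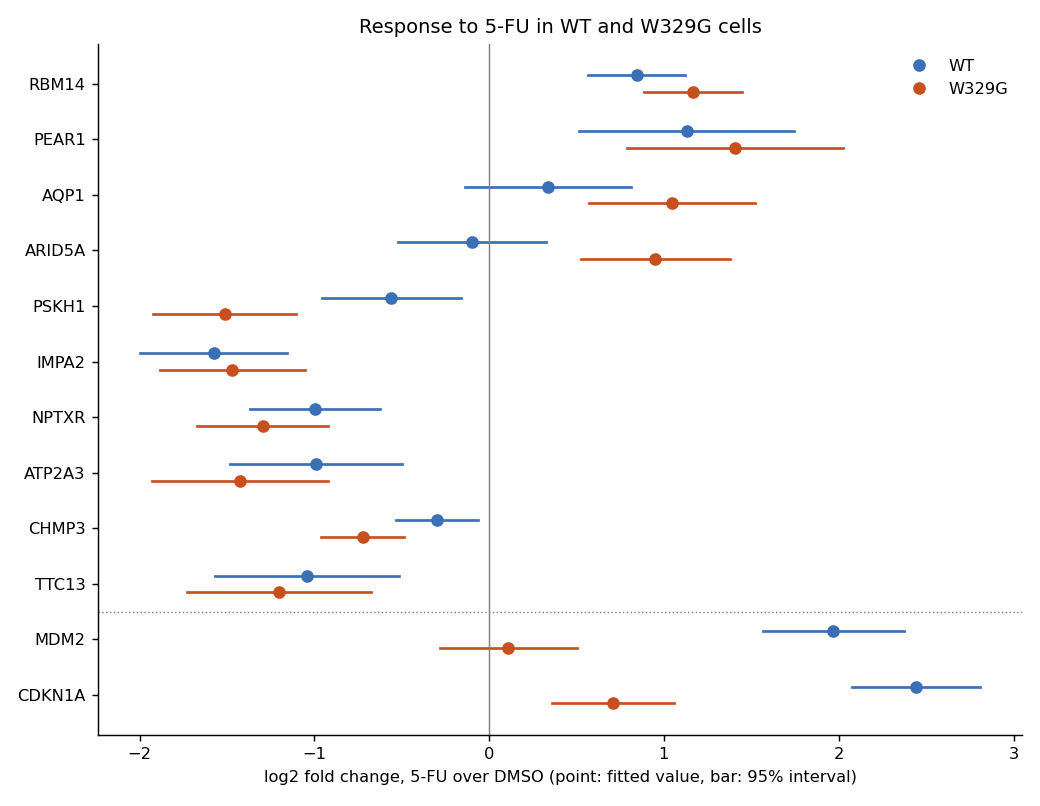
Fitted log2 fold change with 5-FU (horizontal axis) for the 10 genes and, under the dotted line, MDM2 and CDKN1A, with 95% intervals, in WT (blue) and W329G (orange). IMPA2 has nearly equal values (−1.58 and −1.47), ARID5A lies at −0.10 in WT and 0.95 in W329G, and MDM2 at 1.97 and 0.11.

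Set side by side, 6 of the 10 genes were called in both genotypes in the same direction: RBM14 and PEAR1 higher, IMPA2, NPTXR, ATP2A3 and TTC13 lower. Of all 116 genes called in W329G, 63 were also called in WT in the same direction, so 6 of 10 is near that share. In these 6 the W329G change was 93.3% to 143.9% of the WT change on the log2 scale, with a median of 127.3%. Over all 1379 genes called in WT the median was 27.9% (quartiles 5.2% and 55.3%). Those genes did not have to be called in W329G, as the 6 were, so the 2 medians are not of like sets. The p53 target list had 28 of 29 tested genes called higher in WT, and their W329G change had a median of 12.9% of the WT change. In W329G 2 of these 29 were called, AEN higher (0.63 ± 0.13) and CCNG1 lower (−0.66 ± 0.12), both named after their values were seen. MDM2 changed by 1.97 in WT and 0.11 in W329G, and CDKN1A, the p21 gene, by 2.44 and 0.71. The 6 genes were selected on these changes, so their percentages are a description only. In W329G, 8 of the p53 list were called with the line pairs as a replicate block, and 6 by DESeq2.

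**Figure D3:**
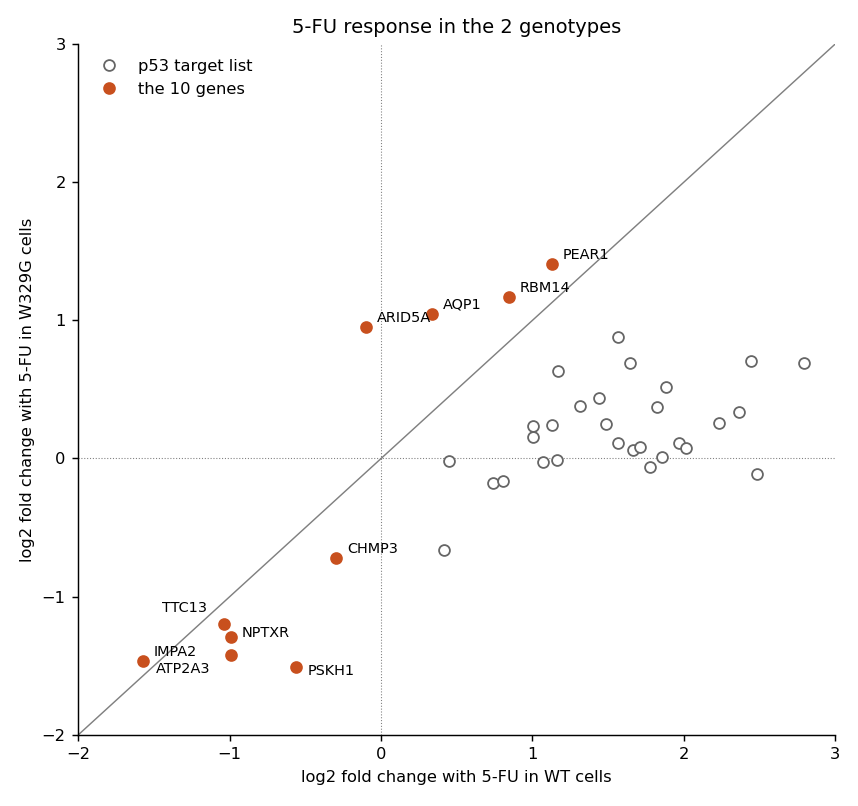
Fitted log2 fold change with 5-FU in WT (horizontal axis) and W329G cells (vertical axis) for the 10 genes (filled) and 29 tested p53 target genes (open); the line marks equal change. IMPA2 (−1.58, −1.47) lies next to the line, the other filled points lie beyond it away from 0, and the open points lie to its right.

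For the difference between the responses, 0 of the 10 genes were called by edgeR in the unblocked fit, where 1.16% of all genes were, with 4 at an unadjusted p under 0.05 and 2 (PSKH1 and ARID5A) called by DESeq2. With the line pairs as a replicate block, 3 of the 10 were called (PSKH1 −0.95, AQP1 0.72 and ARID5A 1.05), where 6.04% of all genes were. For the same 3 genes the 4 pair responses in W329G did not overlap the 4 in WT, as in 13.4% of all genes. The 5-FU libraries did not overlap the DMSO libraries for 6 of the 10 genes in W329G (all genes, 4.13%) and for 4 in WT (8.06%); RBM14, NPTXR and TTC13 were in both counts. These counts use the contrasts that chose the genes.

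The comparison of genotypes under DMSO is not the contrast of the choice but shares its W329G DMSO libraries, so it is not independent of the choice. There 0 of the 10 genes were called by edgeR's quasi-likelihood test on counts summed per line, where 1.38% of 17502 genes were, with 1 at an unadjusted p under 0.05 and 0 called by DESeq2. AQP1 was the nearest, 0.53 ± 0.17 higher in W329G (adjusted p = 0.146), and 3 of 4 W329G DMSO libraries were above all WT DMSO libraries. The other 9 fitted values lay between −0.26 (ATP2A3) and 0.36 (TTC13), with the WT and W329G libraries overlapping for each. With intervals as wide as −0.92 to 0.41 for PEAR1, these values do not show that levels were equal.

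Under 5-FU, 4 of the 10 genes differed between genotypes, where 14.3% of all genes did, and these libraries are also part of the contrast that chose the genes. AQP1 was higher in W329G by 1.28 ± 0.17 (adjusted p = 0.00214) and ARID5A by 0.93 ± 0.18 (adjusted p = 0.0103), with all 4 W329G libraries above all 4 WT libraries. PSKH1 was lower by −0.99 ± 0.23 (adjusted p = 0.0215) and CHMP3 by −0.48 ± 0.11 (adjusted p = 0.0246), with all 4 W329G libraries below. ATP2A3 measured −0.65 ± 0.22 (adjusted p = 0.0852 in edgeR, 0.0444 in DESeq2). RBM14, IMPA2, NPTXR, PEAR1 and TTC13 lay between −0.32 and 0.34, and their libraries overlapped. With single libraries and the replicate number as a replicate block, ATP2A3 joined the calls (−0.82, adjusted p = 0.0141), which made 5.

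How the lines were summed changed 3 of these 4 calls. Cells 1 and 2 of experiment 1 differed in the opposite direction to cells 1 and 2 of experiment 2 across genes (r from −0.24 to −0.73), so the numbers may not name the same line in both experiments. With the numbers exchanged in experiment 2, AQP1 was the 1 gene called (1.29, adjusted p = 0.0382), beside PSKH1 (−0.99, adjusted p = 0.0634), ARID5A (0.96, adjusted p = 0.102) and CHMP3 (−0.46, adjusted p = 0.182). In experiment 1 alone AQP1 was called (1.66, adjusted p = 0.018), and in experiment 2 alone no member was (AQP1 0.77, adjusted p = 0.389). Within experiments PSKH1 measured −1.03 and −1.12, ARID5A 0.85 and 0.97, and CHMP3 −0.47 and −0.45, close to the pooled values. Without replicate 1, ARID5A (0.89, adjusted p = 0.0656) and CHMP3 (−0.43, adjusted p = 0.0885) were not called, and without replicate 4 CHMP3 was not (−0.46, adjusted p = 0.0561).

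**Figure D4:**
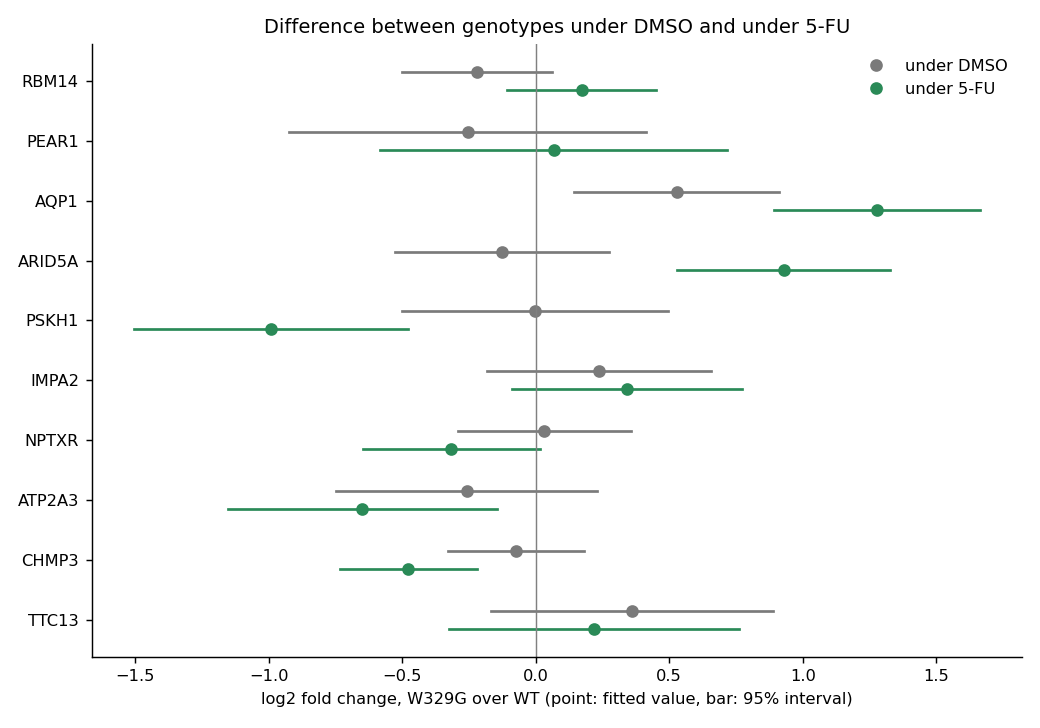
Fitted log2 fold change of W329G over WT (horizontal axis) with 95% intervals for the 10 genes, under DMSO (gray) and under 5-FU (green), on counts summed per line. Under 5-FU the intervals of AQP1 (0.89 to 1.66), ARID5A, PSKH1 and CHMP3 lie away from 0, and under DMSO the values of these 4 genes lie between −0.13 and 0.53.

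The experiments differ in vendor, and levels of several of the genes differ with them: the mean of 8 libraries in experiment 2 was 0.4932 of that in experiment 1 for PSKH1, 0.5143 for ATP2A3, 0.5379 for IMPA2, 0.5979 for NPTXR, 0.6 for AQP1 and 2.759 for PEAR1, while RBM14, CHMP3, TTC13 and ARID5A lay between 0.8111 and 1.145. The responses were compared between the experiments, which is not the contrast of the choice but uses the same libraries. A response that agrees between experiments is more readily called in the pooled fit. The counts of the 10 that follow are therefore not independent of the choice. No gene of the 16445 was called in WT (0%) or in W329G (0%) by edgeR's quasi-likelihood test, so 0 of the 10 were either, and none of the 10 had an unadjusted p under 0.05. Over all genes 290 in WT and 488 in W329G had one, and DESeq2 called 2 genes in each, none of them among the 10. The estimates for RBM14 were 0.12 ± 0.27 in WT and 0.38 ± 0.27 in W329G, and the largest estimate of the 10 in either genotype was TTC13's −0.78 ± 0.47 in WT. With the line pairs as a replicate block, 8 genes were called in WT and 7 in W329G, 0 of them among the 10.

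The other genes of the same families and pathways were counted from lists. As background, 0.195% of all genes were called higher and 0.511% lower in W329G, so a count of 0 in a list this short is near the background, and 3.81% and 4.57% were in WT. Adjusted p-values in the next sentences are from edgeR's quasi-likelihood test with Benjamini-Hochberg adjustment over all genes. Of 19 tested inositol phosphate genes besides IMPA2, 0 were called in W329G (4 at an unadjusted p under 0.05, 0 by DESeq2, 4 with the replicate block) and 3 in WT, with a median log2 change of 0.002 in W329G, where the median of all genes was 0.031. The 3 were INPP1, an inositol polyphosphate 1-phosphatase gene (0.74 ± 0.15 in WT, adjusted p = 0.00629), the kinase gene ITPKC (0.78 ± 0.17, adjusted p = 0.0101) and the phospholipase gene PLCB3 (−0.54 ± 0.15, adjusted p = 0.0339). Of 22 calcium store genes besides ATP2A3, 0 were called in W329G (3 at an unadjusted p under 0.05, 1 by DESeq2, 2 with the replicate block), with a median of 0.061. In WT the channel gene ORAI3 was higher (1.75 ± 0.24, adjusted p = 0.000357) and the inositol trisphosphate receptor gene ITPR3 lower (−0.77 ± 0.13, adjusted p = 0.00199).

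Among paraspeckle genes, the list of RBM14's companions, those called in WT went the other way from RBM14: 6 of 16 were lower (all genes, 4.57%) and 0 higher (all genes, 3.81%), with a median of −0.338, where the median of all genes was 0.032. In W329G 2 were called (6 with the replicate block), with a median of −0.067. They were HNRNPA1, lower (−0.77 ± 0.12, adjusted p = 0.0115; WT −0.67 ± 0.12, adjusted p = 0.00282), and RBM4, higher (0.68 ± 0.12, adjusted p = 0.0192), the gene next to RBM14 that the readthrough transcript joins to it. NONO, a core paraspeckle protein gene, was called in WT (−0.55 ± 0.11, adjusted p = 0.00519) and measured −0.30 ± 0.11 in W329G (adjusted p = 0.241, edgeR). Of 29 ESCRT genes besides CHMP3, edgeR called 0 in WT (4 at an unadjusted p under 0.05, 1 by DESeq2, 3 with the replicate block) and 0 in W329G (1 at an unadjusted p under 0.05, 0 by DESeq2), with medians of 0.095 and 0.016. CHMP2A, another ESCRT-III subunit, measured 0.03 in W329G (adjusted p = 0.954).

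Of 16 genes that control inflammatory mRNA stability, ARID5A's list, 1 was called in W329G (5 with the replicate block) and 3 in WT (9 with the replicate block). TNFAIP3, the gene of the NF-κB inhibitor A20, was the one called in W329G (1.01 ± 0.21, adjusted p = 0.045; WT 0.56 ± 0.21, adjusted p = 0.119, edgeR). In WT the RNA-binding protein genes KHSRP (−0.55 ± 0.13, adjusted p = 0.014) and HNRNPD (−0.59 ± 0.15, adjusted p = 0.0251) were among the 3, both lower. The other of the 3, STAT3, was higher (0.70 ± 0.19, adjusted p = 0.0308) and was named after its values were seen. Of 14 ARID family genes besides ARID5A, edgeR called 0 in W329G (3 at an unadjusted p under 0.05, 0 by DESeq2, 3 with the replicate block), and KDM5B, a histone demethylase gene, was higher in WT (0.78 ± 0.10, adjusted p = 0.000139). Of 5 tested aquaporins besides AQP1, AQP3 was called in WT (1.14 ± 0.28, adjusted p = 0.0174) and 0 in W329G (1 at an unadjusted p under 0.05, 0 by DESeq2).

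Of 7 receptors with multiple EGF-like repeats besides PEAR1, edgeR called 0 in W329G (4 at an unadjusted p under 0.05, 1 by DESeq2, 3 with the replicate block) and MEGF9 in WT (−0.61 ± 0.17, adjusted p = 0.0423). Of 15 kinases related to PSKH1, it called 0 in W329G (1 at an unadjusted p under 0.05, 0 by DESeq2, 2 with the replicate block). In WT 3 were called, 2 lower and 1 higher. DCLK3, a doublecortin-like kinase gene, was lower (−1.84 ± 0.33, adjusted p = 0.0026), as was the calmodulin-dependent kinase gene CAMK4 (−0.65 ± 0.19, adjusted p = 0.0425), and DCLK1 was higher (1.30 ± 0.27, adjusted p = 0.00723). The 2 tested pentraxin genes besides NPTXR were called in neither genotype by edgeR or DESeq2, with 0 at an unadjusted p under 0.05.

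Across the 16 libraries, with log2 CPM centred within each experiment, some of the 10 genes ran together: Pearson's r was 0.925 for PSKH1 and ATP2A3, 0.912 for IMPA2 and NPTXR, and −0.913 for RBM14 and TTC13. IMPA2 and ARID5A were the least related pair, with −0.279. These are descriptions over libraries that share the treatment contrast on which the genes were chosen. Of 11345 genes with a mean of at least 5 CPM, those most like RBM14 were C19orf25 (0.911) and DUSP3 (0.900), those most like PSKH1 were TTC12 (0.959) and TRAPPC9 (0.944), and those most like IMPA2 were HNRNPA1 (0.935) and HADH (0.933). NPTXR was most like PARVB (0.952) and AHRR (0.940), and CHMP3 most like AHRR (0.914) and RPL36AL (0.904). ATP2A3 was followed by PSKH1 and FAM120B (0.920), and AQP1 by ANKFY1 (0.899) and KRT80 (0.894). For PEAR1 they were SLC9A5 (0.943) and ABCC10 (0.922), and for ARID5A TMEM201 (0.945) and XRCC3 (0.906).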

How the data were processed

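Poly-A RNA of 16 libraries was measured, and the raw counts deposited by the authors come as 1 table for each library. Per the file headers, experiment 1 lists Ensembl genes with coordinates and length beside each count, and experiment 2 lists symbols. The aligner, the counting tool and its strand setting are not given in the sources used. As build, hg19 is named in the submitters' processing notes, while 96.3% of 56898 experiment 1 genes have their GENCODE 29 (GRCh38) start and end. The experiments were joined by symbol (28719 genes, 276 through an older GENCODE symbol). The largest counts of experiment 2 appear rounded (each of the 26 values with 7 digits or more has 0 as its last digit).

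Counts were tested with edgeR 4.0.16 in R 4.3.3 (TMM, filterByExpr with a minimum count of 10, quasi-likelihood F test, Benjamini-Hochberg, threshold 0.05). One fit of all 16 libraries and 16445 genes, with an experiment term, gave the responses and their difference. Comparisons of responses between experiments came from a fit of 8 groups over all libraries, and genotype comparisons from counts summed per line (8 sums, 17502 genes). An experiment alone means a fit of the libraries of that experiment only. Standard errors are the absolute log2 change over the root of F. Log2 CPM used a prior count of 2. DMSO and 5-FU libraries of 1 genotype, experiment and cell number come from the same labelled line. Across genes, line differences under DMSO and under 5-FU had r = 0.779 and 0.684 (WT, experiments 1 and 2) and r = 0.813 and 0.779 (W329G). The pair responses and the replicate block used this pairing, and the main fit did not. With the block, PEAR1 measured 1.40 ± 0.15 in W329G against 1.41 ± 0.29 in the main fit. The 95% interval of its difference was −0.24 to 0.71 with the block, against −0.59 to 1.14. No 2 libraries of a group and experiment were copies (chi-square over its degrees of freedom, 61 to 184). The lowest count of any of the 10 genes in a library was 60.

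The 10 genes, the gene lists and the tests were chosen with earlier results of these data known. Genes named besides the 10 are MDM2, CDKN1A, close paralogs, overlapping genes, up to 3 called genes per list by smallest p, and the 2 genes most correlated with each of the 10 (TTC13, under a mean of 5 CPM, was not compared). Lists were of inositol phosphate, calcium store, paraspeckle, ESCRT, aquaporin, pentraxin, EGF-repeat receptor, ARID, mRNA stability and PSKH1-related kinase genes, p53 targets, and markers of osteoblast, epithelial, blood, endothelial and neural cells; the neural list summed to 20.29 to 56.01 CPM. Alternatives were DESeq2 1.42.0 and its size factors, no filter, no mitochondrial genes, replicate blocks, single libraries, exchanged line numbers, each experiment alone and leaving out each replicate. The fits were tested on simulated data.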

Additional observations from a re-analysis of the deposited data

Results flagged for a closer look

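ARID5A was the 1 gene of the 10 with a library far from the rest of its group. In WT DMSO replicate 4 it measured 6.745 CPM, where the other 3 libraries lay between 10.74 and 11.41 CPM. In W329G DMSO replicate 4 it measured 5.531 CPM, where the others lay between 9.993 and 10.6 CPM. Both are cells 2 of experiment 2. These are 2 of 40 groups examined, and chance marks about 1 in 20 groups. Over the 4 fits that each leave out 1 replicate, the W329G log2 change of ARID5A lay between 0.88 and 0.99.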

How the results depend on the processing

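Each of the 10 genes had at least 60 counts in every library, and depth limits PEAR1, ATP2A3 and TTC13 most. Leaving out 1 replicate at a time, 2 to 5 of the 10 genes were called in W329G (8 to 23 genes in all), 4 to 5 in WT (637 to 1109), 0 in the difference of responses (28 to 129), 0 under DMSO (10 to 27) and 2 to 4 under 5-FU (937 to 1865). RBM14 and PSKH1 were called in W329G in all 4 of these fits, IMPA2 and NPTXR in 3, ATP2A3 and CHMP3 in 1, and AQP1, ARID5A, PEAR1 and TTC13 in 0, with no change of direction.

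With the line pairs as a replicate block, 1739 genes were called in W329G, 4086 in WT, 993 (3 of the 10) in the difference of responses, and 8 and 7 in the difference between experiments (WT and W329G). The block also added PSKH1 in WT and changed no other call of the 10 genes in these contrasts. Over all alternative settings, the 10 genes gained 2 WT calls, PSKH1 with the block among them. The DESeq2 test called 566, 2097, 467 (2 of the 10) and, under DMSO, 1261, and 2 and 2 between experiments. Experiment 1 alone called 0 genes in W329G (0 of the 10), 205 in WT (2), 0 in the difference, 0 under DMSO and 421 under 5-FU (1). Experiment 2 alone called 0 in W329G (0 of the 10), 0 in WT (0), 0 in the difference, 4 under DMSO and 30 under 5-FU (0), with fewer libraries. Under DMSO no filter gave 900 calls, single libraries 146, single libraries with a replicate block 517, and exchanged line numbers 2; exchanged numbers gave 222 under 5-FU (1 of the 10). The causes were not tested. No value of the 10 genes that was called reversed.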
